A study of Mus musculus with 6 samples.

Results

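Sensory neurons of the dorsal root ganglion make small peptides beside glutamate, and 10 genes that encode such peptides or their precursors were followed here in parvalbumin-positive neurons labelled as a Dicer knockout and in wild type: Tac1, Cartpt, Calca, Calcb, Adcyap1, Gal, Npy, Sst, Nppb and Vip. The genes were taken by name from a list that was drawn up with earlier results of these data known, so their counts of calls describe these genes and are not independent evidence of a direction. All 10 were found, each as 1 row, among the 31469 rows of the expression table. The Dicer knockout group (n = 3 libraries) is labelled as a knockout of Dicer driven by Pvalb; Dicer is the enzyme that trims microRNA precursors to their mature form. The other group (n = 3 libraries) is labelled wild-type. Both were C57BL/6 mice at postnatal day 21, and RNA came from parvalbumin-positive neurons of the ganglion at lumbar level 4. In this ganglion parvalbumin marks mainly proprioceptors, which report muscle length and tension, and also some touch neurons, so the deletion is limited to cells in which the Pvalb promoter has been active. The labels do not say what the wild-type animals carried beyond that word, how the cells were collected, whether animals were pooled or whether libraries share an animal. The p-values therefore reflect the spread among these libraries, which may be technical. Values are TPM (transcript abundance as a share of 1000000), which are scaled by transcript length and can be set beside each other between genes.

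Neuropeptides are made as longer precursors, cut by proprotein convertases, trimmed and often amidated inside dense-core vesicles. They are released to act mostly on G protein-coupled receptors. In the dorsal root ganglion, substance P from Tac1, the calcitonin gene-related peptides (CGRP) from Calca and Calcb, and PACAP from Adcyap1 are best known from the peptidergic neurons that respond to painful stimuli. Galanin, NPY and VIP are low in intact rodent sensory neurons and are known for their rise after peripheral nerve injury, and somatostatin and the natriuretic peptide B of Nppb are known from itch neurons of the mouse. Many peptide genes carry a cyclic AMP response element in the promoter, the letters that the transcription factor CREB binds.

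The promoters of the 3 peptide genes that were called lower in the knockout libraries are shown because these genes share a direction. Adcyap1 has a further RefSeq window, not printed, that holds the same match. The GENCODE gene of Tac1 begins within its window, upstream of the RefSeq start. The GENCODE gene of Cartpt begins at 99901091, upstream of its whole window, which therefore lies inside that gene. Each sequence is the RefSeq window of 250 bases before to 50 bases after a gene's start (GRCm38.p6), written 5′ to 3′ on the gene's strand, with the element TGACGTCA or its shorter form TGACG in capitals. On the other strand the shorter form reads CGTCA.
Tac1 promoter, chr6:7554811-7555110, plus strand: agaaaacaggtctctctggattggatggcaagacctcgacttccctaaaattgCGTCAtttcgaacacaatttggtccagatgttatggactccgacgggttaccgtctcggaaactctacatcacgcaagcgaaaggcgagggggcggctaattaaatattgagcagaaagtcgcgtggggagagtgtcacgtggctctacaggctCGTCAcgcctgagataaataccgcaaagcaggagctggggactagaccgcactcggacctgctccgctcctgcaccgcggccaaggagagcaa
Cartpt promoter, chr13:99900634-99900933, minus strand: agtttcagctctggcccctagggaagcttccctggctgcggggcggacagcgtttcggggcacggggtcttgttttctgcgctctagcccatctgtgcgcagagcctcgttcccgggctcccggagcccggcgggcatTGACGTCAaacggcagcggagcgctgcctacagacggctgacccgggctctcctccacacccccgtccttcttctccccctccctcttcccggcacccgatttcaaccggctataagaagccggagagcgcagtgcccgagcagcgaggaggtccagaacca
Adcyap1 promoter, chr17:93198767-93199066, plus strand: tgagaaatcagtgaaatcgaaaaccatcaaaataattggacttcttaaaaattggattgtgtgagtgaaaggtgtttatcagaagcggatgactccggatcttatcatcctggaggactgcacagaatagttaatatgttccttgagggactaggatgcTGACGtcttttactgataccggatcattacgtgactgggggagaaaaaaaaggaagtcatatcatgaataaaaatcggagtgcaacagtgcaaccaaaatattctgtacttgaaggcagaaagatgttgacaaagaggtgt

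Both forms were searched on both strands, and the shorter form lies inside the full one. Promoter windows were found for 9 of the 10 members, all but Calcb. The full element was in 2 of the 9, Cartpt (position -112 from the start) and Sst (position -48), against 1.79% of all 32851 windows. In both genes it lies downstream of the start that GENCODE gives. The shorter form was in 7 of the 9, against 20.8% of all windows. The windows of Npy and Nppb held neither. In the Tac1 window it appeared as CGTCA at positions -197 and -43, and in the Adcyap1 window as TGACG at position -91. It was therefore found in the 3 genes that were called lower and also in Calca, which was not called, and in Sst, Vip and Gal, shown here with 12 bases on either side.
Calca, chr7:114636406-114636434, minus strand: gaagcacagaggTGACGcaatctgtctgg
Sst, chr16:23890873-23890904, minus strand: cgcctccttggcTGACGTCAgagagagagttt
Vip, chr10:5639127-5639155, plus strand: ggatcactactgTGACGtctttcggggag
Gal, chr19:3414509-3414537, minus strand: gcgctgagccggTGACGcggcagctccca

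Because Dicer makes microRNAs, the 3′ untranslated regions of the members were also searched for 7-base matches to bases 2 to 8 (the seed) of 11 microRNAs, of the families let-7, miR-9, miR-26, miR-29, miR-30, miR-96, miR-130, miR-181, miR-182, miR-183 and miR-206. A planned search for miR-124 was not made, because the reference used held no mature entry for it. A match was found in 4 of the 10 members, for 1 microRNA each: miR-96 in Tac1, miR-26a in Calcb, miR-181a in Calca and miR-30a in Vip. The 2 microRNAs with a match in a called gene, and the matched stretches, are given below with the seed and its match in capitals (microRNA from RefSeq, GRCm38.p6; transcript from GENCODE M21, GRCm38).
miR-96-5p: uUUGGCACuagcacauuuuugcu
Tac1 site, chr6:7562574-7562602, plus strand: tttttcatattGTGCCAAtaagccttgta
miR-26a-5p: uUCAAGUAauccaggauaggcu
Calcb site, chr7:114723016-114723044, plus strand: accaccgttgtTACTTGAgaggaatgaaa

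Of 11502 tested genes with an annotated 3′ untranslated region, 10.1% held a match to miR-96 and 11.8% a match to miR-26a. Tac1, with a match, was lower in the knockout libraries, and Calcb, with a match, was higher. Cartpt and Adcyap1, both lower, held no match to any of the 11, although the Adcyap1 region is the longest of the 10 at 2410 bases. A match is a run of letters and not a tested site, and microRNA levels were not analysed here.

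The libraries resembled each other closely, with correlations of log2 values across rows of 0.963 to 0.973 within knockout, 0.949 to 0.968 within wild type and 0.925 to 0.964 between the groups. Dicer1 was at 24.0, 20.8 and 21.8 TPM in the knockout libraries, against 36.7, 26.0 and 48.7 TPM in the wild-type libraries (log2 difference -0.68, SE 0.22, limma adjusted p = 0.104). The groups did not overlap. A whole-gene value cannot show how much of a deleted exon was lost. Pvalb, which marked the cells, was at 4.02, 3.69 and 13.98 TPM in knockout and 25.1, 19.7 and 23.1 TPM in wild type and fell (-1.73, adjusted p = 0.0452), a call that ended without any single library other than knockout replicate 3 (adjusted p from 0.0804 to 0.149). It also ended with a pseudocount of 0.1 (0.0552), with no filter on low values (0.0932) and with satellite glia markers as a covariate (difference -1.26, adjusted p = 0.155). Knockout replicate 3 and wild-type replicate 3 had 32.7 and 33.3 TPM of the Y-linked Ddx3y, against at most 0.02 TPM in the other 4. The X-linked Xist was at 69.5, 32.9 and 0 TPM in knockout and 46.1, 22.2 and 0.06 TPM in wild type. Replicate 3 therefore differed in both sex-linked genes in each group. Over 13787 tested rows, 256 rose and 437 fell. At an unadjusted p below 0.05, 9.77% of the tested rows were higher and 14.1% lower. Among the rows called at a limma adjusted p below 0.05, rises made up 36.9%, and 49.3% after median-of-ratios scaling.

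Among the 10 peptide genes, Tac1, Cartpt and Adcyap1 fell in the Dicer knockout libraries and Calcb rose. Calca, Gal and Npy did not pass the test, and Vip, Sst and Nppb were too low to be tested. Of all tested rows, 3.17% were called lower and 1.86% higher by the same rule (limma, adjusted p below 0.05), beside 3 lower and 1 higher among the 7 members that reached a mean of 1 TPM. Cartpt passed that filter only through the wild-type libraries and Gal only through 1 knockout library. The knockout and wild-type values did not overlap in the 4 called members, as in 28.9% of all tested rows. The 7 tested members had a median log2 difference of 0.10, beside -0.05 over all tested rows. In RNA from many cells, fewer cells of a type and less RNA per cell cannot be told apart.

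**Figure D1:**
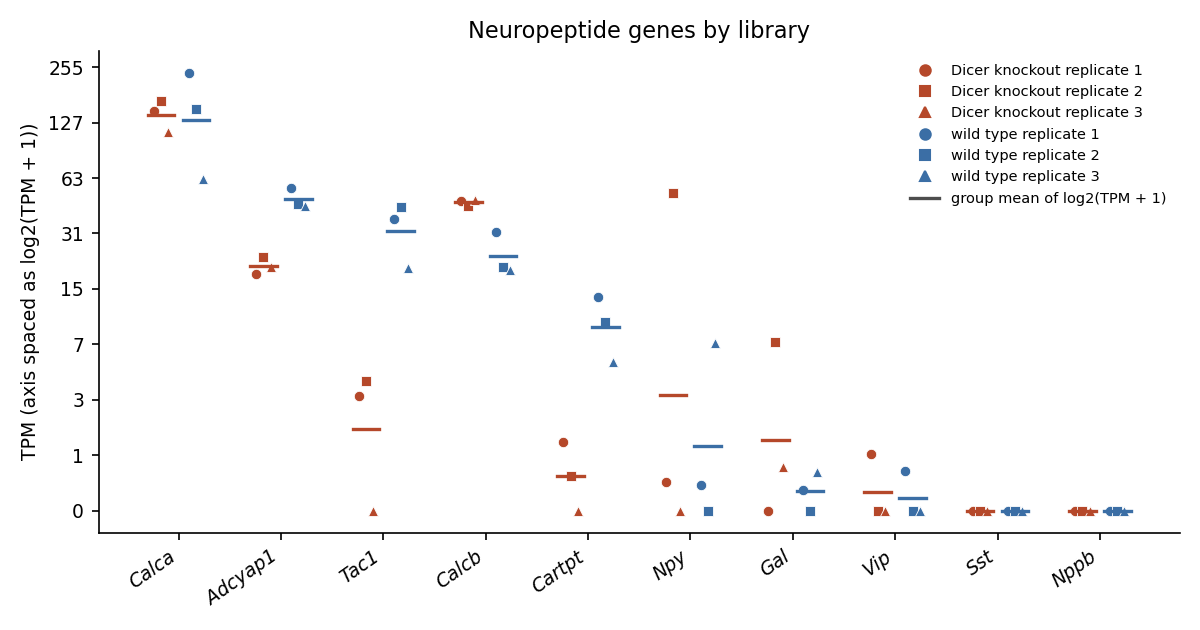
TPM of the 10 neuropeptide genes (vertical axis spaced as log2(TPM + 1)) in each library, Dicer knockout in red on the left of each gene and wild type in blue on the right, with horizontal lines at the group means on that scale. Tac1, Cartpt and Adcyap1 are lower in every knockout library and Calcb is higher, while Npy and Gal stand high in knockout replicate 2.

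The wild-type levels put Calca first, at 150 ± 88.0 TPM (SD, n = 3), then Adcyap1 at 48.4 ± 6.25 TPM, Tac1 at 33.6 ± 12.4 TPM, Calcb at 23.6 ± 6.91 TPM and Cartpt at 9.51 ± 4.06 TPM. The wild-type values overlapped between Tac1 and Calcb and between no other neighbours in this order. Wild-type replicate 3, which had the lowest Calca level of 61.9 TPM, was still above the highest Adcyap1 level of 55.6 TPM. In the knockout libraries the order was Calca at 142 ± 26.6 TPM, Calcb at 46.2 ± 1.73 TPM and Adcyap1 at 20.4 ± 2.26 TPM, with no overlap between these 3 genes, and Tac1 and Cartpt below them. In knockout replicate 2, Npy at 52.4 TPM was above Calcb. The 10 genes summed to 218, 297 and 182 TPM in knockout and 377, 269 and 158 TPM in wild type, so the summed level overlapped between the groups.

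Tac1 encodes the precursor of substance P and neurokinin A and lies on chromosome 6 (chr6:7554879-7565834, plus strand, GRCm38). It was at 3.20 and 4.08 TPM in 2 knockout libraries and listed at 0 in knockout replicate 3, against 37.6, 43.5 and 19.7 TPM in wild type. Every wild-type value lay far above every knockout value. The log2 difference was -3.57 (SE 0.58, 95% interval -4.87 to -2.27, limma adjusted p = 0.0128), and on the log2 scale it was the 7th lowest of all 13787 tested rows. The call held with any single library left out and ended with a pseudocount of 0.1 in place of 1 (difference -4.84, adjusted p = 0.0629).

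Rows with a profile over the 6 libraries near that of Tac1, by the root mean square difference of standardised log2 values, included Sh3rf3 and Hs6st2, at distances of 0.097 and 0.16. Sh3rf3 was at 1.57, 1.49 and 0.76 TPM in knockout and 3.25, 3.44 and 2.95 TPM in wild type. The distance is on standardised values and ignores the size of a difference. Sh3rf3 and Hs6st2 differed by -0.91 and -0.75 on the log2 scale, beside -3.57 for Tac1. Neither was called (limma adjusted p = 0.126 and 0.12). Likeness here is over 6 libraries only. For Calca the nearest rows were Ube2e3, Map10 and Syngr3, at distances of 0.18, 0.21 and 0.24.

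Calca and Calcb lie near each other on chromosome 7 (chr7:114631478-114636357, minus strand, and chr7:114718643-114723365, plus strand) and encode the precursors of the alpha and beta forms of CGRP. Calca also gives calcitonin by alternative splicing, which a gene-level value does not separate, and because the genes are similar in sequence the division of reads between them is uncertain. Calca was at 147, 166 and 113 TPM in knockout and 238, 151 and 61.9 TPM in wild type. The groups overlapped fully in range, with a log2 difference of 0.10 (SE 0.40, 95% interval -0.81 to 1.02, adjusted p = 0.907). With single libraries left out the difference ran from -0.43 to 0.53, so its sign depended on the library left out.

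Calcb was at 46.8, 44.3 and 47.6 TPM in knockout and 31.6, 19.9 and 19.3 TPM in wild type. The knockout values lay close together and above all 3 wild-type values. Calcb rose by 0.98 on the log2 scale (SE 0.19, 95% interval 0.54 to 1.42, adjusted p = 0.0268), or 1.96-fold in mean TPM. The call held without wild-type replicate 1 and ended without any other single library (adjusted p from 0.0642 to 0.102), with no filter on low values (0.0551), without both replicate 3 libraries (0.148) and with a covariate for satellite glia (0.0875). Calcb made up 24.2%, 21.1% and 29.6% of Calca and Calcb together in knockout, against 11.7%, 11.7% and 23.8% in wild type, and these shares overlapped between the groups.

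Adcyap1 encodes PACAP, a peptide of the secretin family that raises cyclic AMP (chr17:93199017-93206537, plus strand). It was at 18.4, 22.9 and 19.96 TPM in knockout and 55.6, 45.3 and 44.3 TPM in wild type. The groups were far apart relative to their spread. Adcyap1 fell by 1.205 on the log2 scale (SE 0.16, adjusted p = 0.00483), and the mean was 2.37-fold higher in wild type. This was the smallest p among the members, and the call held under all 15 alternatives. Vip, which encodes a related peptide, was listed at 1.02, 0 and 0 TPM in knockout and 0.64, 0 and 0 TPM in wild type and was not tested.

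Cartpt encodes the peptide known as cocaine- and amphetamine-regulated transcript (chr13:99898489-99901091, minus strand). It was at 1.37 and 0.54 TPM in 2 knockout libraries and listed at 0 in knockout replicate 3, against 13.5, 9.64 and 5.38 TPM in wild type. Knockout replicate 1, the highest of its group, was still below the lowest wild-type library. The log2 difference was -2.69 (SE 0.43, 95% interval -3.66 to -1.73, adjusted p = 0.0123), and the call held under all 15 alternatives (adjusted p from 0.00745 to 0.0407). Its size ran from -4.30 to -2.38 over these alternatives. Cartpt reached the filter on mean TPM only through the wild-type libraries, and its knockout values were near 0. In both groups replicate 3 had the least Cartpt and the least Tac1.

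**Figure D2:**
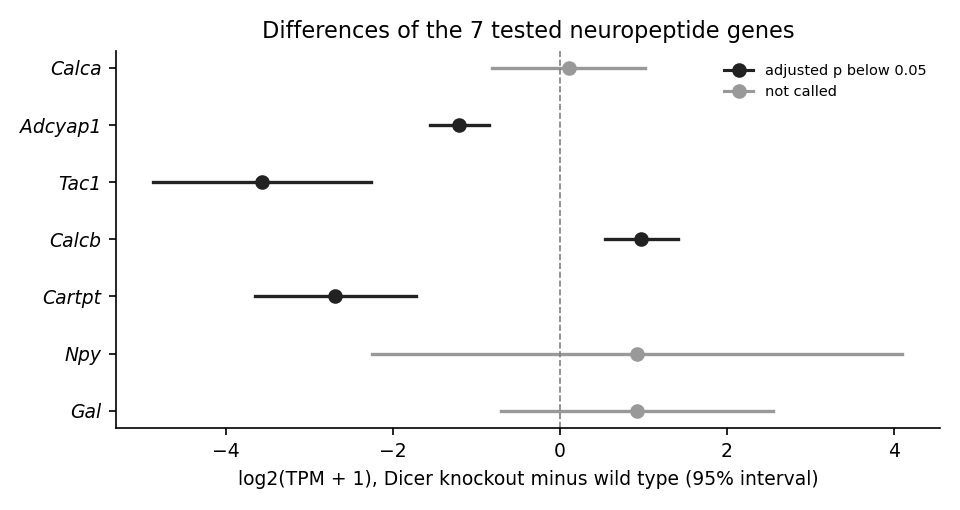
Difference of log2(TPM + 1), Dicer knockout minus wild type, for the 7 tested neuropeptide genes, with 95% intervals from limma (black, adjusted p below 0.05; grey, not called). Tac1, Cartpt and Adcyap1 lie below 0 and Calcb above it, and the intervals of Npy and Gal are wide.

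Npy and Gal, the peptide genes known for induction by nerve injury, were high in 1 knockout library and low in most others. Npy was at 0.43, 52.4 and 0 TPM in knockout and 0.38, 0 and 7.10 TPM in wild type. Gal was at 0, 7.21 and 0.73 TPM in knockout and 0.29, 0 and 0.62 TPM in wild type. In both genes the high value was knockout replicate 2, and the groups overlapped. The log2 differences were 0.92 for each (SE 1.40 for Npy and 0.72 for Gal; adjusted p = 0.733 and 0.476), and without knockout replicate 2 the Npy difference was -0.90 and Gal no longer reached the filter.

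The same library stood high in injury genes that were chosen for display after their values were seen. Sprr1a, a small proline-rich protein induced in injured sensory neurons, was at 0, 47.1 and 0 TPM in knockout and 0, 0 and 3.80 TPM in wild type. Atf3, a transcription factor induced by axon injury, was at 6.44, 31.2 and 6.69 TPM in knockout and 4.80, 8.17 and 12.9 TPM in wild type. Both had their highest value in knockout replicate 2 and, in wild type, in replicate 3. The neurotensin gene Nts was highest in wild-type replicate 3, at 0.38, 18.8 and 0 TPM in knockout and 0.67, 0 and 83.5 TPM in wild type. The 14 axon injury genes summed to 219, 384 and 254 TPM in knockout and 258, 249 and 258 TPM in wild type. Of the 11 tested, Bdnf, a neurotrophin, rose by 1.22 (adjusted p = 0.0268, lost without knockout replicates 1 or 2 or wild-type replicates 2 or 3, adjusted p from 0.0552 to 0.0989) and 10 did not pass. The Bdnf call also ended with no filter (0.0608), without both replicate 3 libraries (0.0695) and with the glia covariate (0.103). The list's median was 0.43, with an unadjusted p below 0.05 for 2 higher and 2 lower. Over all tested rows, 1.86% were called higher and 3.17% lower. Gap43, a growth cone protein gene, was at 43.2, 73.2 and 78.2 TPM in knockout and 72.9, 31.5 and 43.4 TPM in wild type, and Jun, a transcription factor gene, at 63.7, 80.8 and 70.9 TPM in knockout and 83.4, 108 and 88.1 TPM in wild type; neither was called. What set these libraries apart was not tested.

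**Figure D3:**
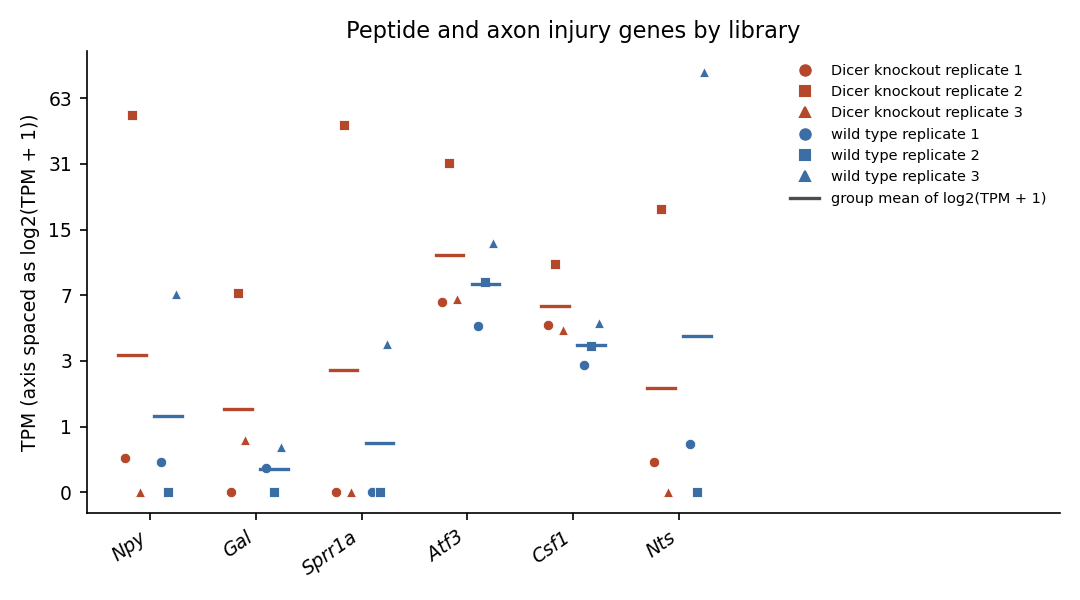
TPM of Npy, Gal, the injury genes Sprr1a, Atf3 and Csf1, and Nts (vertical axis spaced as log2(TPM + 1)) in each library, Dicer knockout in red on the left and wild type in blue on the right, with lines at group means on that scale. Knockout replicate 2 is the highest library for all but Nts, which is highest in wild-type replicate 3.

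Sst and Nppb, the peptide genes of itch neurons, were listed at 0 in all 6 libraries. The depth of the libraries is unknown, so no upper limit can be given for them. Of 18 nociceptor and itch neuron markers, all were found by name and none was at 0 in all 6 libraries, and they summed to 1382, 1130 and 1483 TPM in knockout and 1044, 1231 and 1433 TPM in wild type, mostly from Prph, an intermediate filament gene (1026 to 1363 TPM in knockout and 958 to 1376 TPM in wild type). Plxnc1, a semaphorin receptor gene, was at 32.0, 24.6 and 28.8 TPM in knockout and 17.3, 29.0 and 20.8 TPM in wild type. Of 9 tested, Tmem233 rose by 0.98 (adjusted p = 0.0345), 0 fell and 8 did not pass; the median was 0.42, and unadjusted p values below 0.05 numbered 4 higher and 0 lower. The Tmem233 call ended without any single library other than wild-type replicate 1 (adjusted p from 0.0678 to 0.135), with a replicate block (0.0558), with no filter (0.0736), with the glia covariate (0.109) and without both replicate 3 libraries (0.186). Chosen after their values were seen, the nociceptor sodium channel gene Scn10a was at 13.4, 17.1 and 14.1 TPM in knockout and 7.38, 7.44 and 0 TPM in wild type (adjusted p = 0.144), and Trpv1, the heat and capsaicin receptor, was at 0 in all 3 knockout libraries and 0.30, 0 and 0 TPM in wild type. By the same rule 3.17% of all tested rows were called lower, so 0 of 9 is near that share. The share called higher was 1.86%, beside 1 of the 9. At an unadjusted p below 0.05 from limma, 9.77% of all tested rows were higher, beside 4 of the 9, and 14.1% were lower, beside 0. Whether cells with these markers have a part in the falls of Tac1, Cartpt and Adcyap1 was not tested.

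Markers of other cell types also differed between the groups. The 12 markers of satellite glia, which surround sensory neuron bodies, summed to 652, 477 and 1048 TPM in knockout and 1426, 874 and 1978 TPM in wild type, and none was at 0 in every library. Fabp7 and Gja1 fell by 1.75 and 1.53 (adjusted p = 0.0412 and 0.0408), and 10 did not pass (median -0.61, with an unadjusted p below 0.05 for 1 higher and 4 lower). The share called lower over all tested rows was 3.17%, and 14.1% were lower at an unadjusted p below 0.05 from limma. The Fabp7 call ended without knockout replicates 1 or 2 or wild-type replicates 1 or 3 (adjusted p from 0.0796 to 0.13), and the Gja1 call without any single library (0.0599 to 0.121). With a replicate block 5 of the 12 were called lower, with an adjusted p of 0.00671 for Fabp7, and with no filter 0 were. With the mean level of this list as a covariate, Tac1, Cartpt and Adcyap1 stayed called lower, at -4.48, -3.08 and -1.25, and Calcb was 0.995, beside 0.98 without the covariate, and not called (adjusted p = 0.0875). The list itself tended lower in knockout, so this covariate cannot separate the glia level from the genotype. The 6 Schwann cell markers summed to 1391, 1275 and 1039 TPM in knockout and 520, 449 and 529 TPM in wild type, nearly all from Pmp22, a myelin protein gene, which rose by 1.34 (adjusted p = 0.00212). Whether the satellite glia or Schwann cell marker differences have a part in the peptide results was not tested. Macrophage markers were near 0, summing to 3.99 to 6.07 TPM in knockout and 6.02 to 8.76 TPM in wild type.

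Of the listed receptors for these or related peptides, 1 fell and none rose. Among 27 receptor genes, 26 were found by name, 8 reached the filter, and 7 of those did not pass (median -0.48; unadjusted p below 0.05 in 1 higher and 1 lower). Over all tested rows, 3.17% were called lower and 1.86% higher. Sstr1, a somatostatin receptor, was listed at 0 in all 3 knockout libraries and at 2.43, 3.18 and 1.66 TPM in wild type, through which alone it entered the test (adjusted p = 0.036). The call did not hold when any single library was left out: the adjusted p was 0.0711 to 0.115 without any one knockout library or wild-type replicate 3, and Sstr1 no longer reached the filter without wild-type replicate 1 or 2. It also ended with a pseudocount of 0.1 (0.0631), a replicate block (0.0653), the glia covariate (0.0687) and without both replicate 3 libraries (0.118). Npr2, a natriuretic peptide receptor and the highest of the list, was at 84.3, 64.6 and 70.8 TPM in knockout and 72.5, 67.6 and 68.0 TPM in wild type (0.07, adjusted p = 0.789). Npy1r, a receptor for NPY, was at 21.4, 18.0 and 21.2 TPM in knockout and 28.0, 19.5 and 23.9 TPM in wild type (log2 difference -0.22, adjusted p = 0.499). Chosen after their values were seen, Ramp1, Tacr1 and Npr1 were at 0.58 TPM or less in every library. Ramp1 is a subunit of the CGRP receptor, Tacr1 the substance P receptor gene and Npr1 a further natriuretic peptide receptor gene.

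Most of the machinery that cuts, amidates and packs peptides did not pass the test, and 4 genes did. All 25 genes of peptide processing and dense-core vesicles were found and tested: Vgf rose, Scg2, Chgb and Pcsk5 fell, and 21 did not pass (median -0.16, beside -0.05 over all rows). The shares called over all tested rows were 3.17% lower and 1.86% higher. Scg2, the granule protein secretogranin II, was at 30.7, 43.7 and 35.7 TPM in knockout and 116, 149 and 87.5 TPM in wild type. Its highest knockout value lay below its lowest wild-type value. Scg2 fell by 1.63 (SE 0.21, adjusted p = 0.00454), a call that held under all 15 alternatives (adjusted p up to 0.0267). Vgf, a granin whose product is cut into several peptides, was at 15.1, 16.1 and 12.1 TPM in knockout and 6.14, 4.78 and 3.33 TPM in wild type. It rose by 1.44 (SE 0.25, adjusted p = 0.0159), with no overlap between groups, and the call ended without knockout replicate 1 (adjusted p = 0.0782), knockout replicate 2 (0.0669) or both replicate 3 libraries (0.067) and with the glia covariate (0.0751).

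Chgb, which encodes the granule protein chromogranin B, was at 221, 208 and 216 TPM in knockout and 291, 363 and 319 TPM in wild type and fell by 0.58 (adjusted p = 0.0241). Pcsk5, a proprotein convertase, was at 3.52, 0.52 and 2.98 TPM in knockout and 10.6, 7.14 and 14.4 TPM in wild type and fell by 1.91 (adjusted p = 0.0429). The groups overlapped in neither gene. The Chgb call ended without any single library other than wild-type replicate 1 (adjusted p from 0.0529 to 0.0869) and with a replicate block (0.0533), and the Pcsk5 call without any single library (from 0.056 to 0.125). With the glia covariate and without both replicate 3 libraries neither was called (0.0776 and 0.126 for Chgb, 0.138 and 0.142 for Pcsk5), nor was Pcsk5 with a pseudocount of 0.1 (0.0703) or no filter (0.0932). Chosen after their values were seen, the convertase genes Pcsk1 and Pcsk2 were at 61.8 to 96.7 and 150 to 175 TPM in knockout and 54.8 to 73.1 and 133 to 164 TPM in wild type (adjusted p = 0.4 and 0.391). Of 10 peptide-degrading enzymes, 9 were tested and limma called 0 (median 0.05), with an unadjusted p below 0.05 for 3 higher and 0 lower. The unadjusted shares over all tested rows were 9.77% higher and 14.1% lower. Ide, the insulin-degrading enzyme and the highest of them, was at 163, 135 and 140 TPM in knockout and 150, 113 and 125 TPM in wild type. Ece1, an endothelin-converting enzyme, was at 34.2, 32.7 and 40.9 TPM in knockout and 32.5, 30.8 and 41.4 TPM in wild type.

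**Figure D4:**
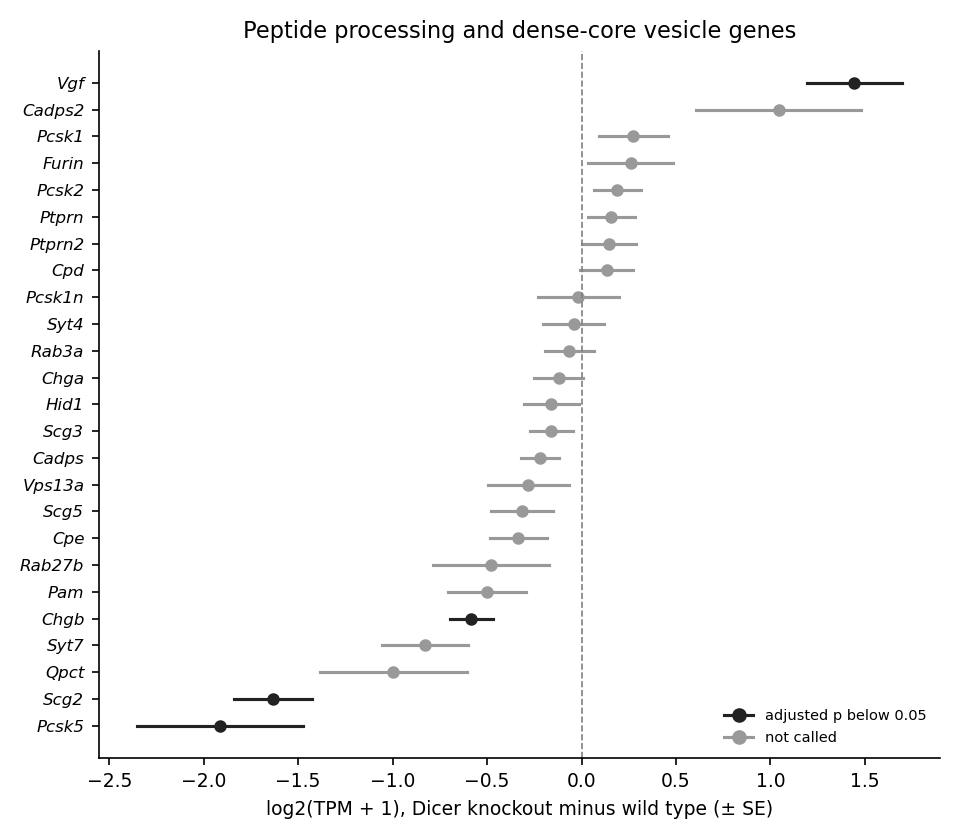
Difference of log2(TPM + 1), Dicer knockout minus wild type, with SE from limma, for the 25 genes of peptide processing and dense-core vesicles (black, adjusted p below 0.05; grey, not called). Vgf lies highest at 1.44 and Pcsk5 and Scg2 lowest at -1.91 and -1.63.

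Of 42 other peptide and granin precursor genes, all were found and 17 were listed at 0 in every library. Of 10 tested, Vgf rose, Scg2 and Chgb fell, as above since these lists share them, and 7 did not pass (median 0.26; unadjusted p below 0.05 in 2 higher and 3 lower). Over all tested rows, 3.17% were called lower and 1.86% higher. Chosen after their values were seen, Nmb, which encodes neuromedin B, was at 72.8, 129 and 95.9 TPM in knockout and 82.6, 37.2 and 29.2 TPM in wild type (log2 difference 1.09, adjusted p = 0.105). Cck, the cholecystokinin gene, was at 16.5, 20.1 and 8.25 TPM in knockout and 9.45, 11.9 and 5.53 TPM in wild type (0.65, adjusted p = 0.304). Both overlapped between the groups. Also chosen afterwards, Penk, which encodes enkephalins, and Tac2 were listed at 0 in all 6 libraries.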

How the data were processed

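RNA sequencing libraries of parvalbumin-positive neurons (3 Dicer knockout, 3 wild type, assigned by sample title) were compared. Per the labels' protocols, RNA was extracted with the PicoPure kit and amplified as cDNA with an Ovation kit. Per the submitters' processing notes, cutadapt, Bowtie2 and RSEM 1.2.7 were used with mm10, and the gene annotation was not given in the sources used here. TPM values were deposited by the authors as a single table with a column per library. Every column adds up to about 1000000, so values are relative within a library, the depth is unknown and no interval that needs it is given. RSEM divides reads between similar transcripts by a model, and a 0 may reflect such an estimate.

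The 13787 rows averaging 1 TPM or more over the libraries were fitted on log2(TPM + 1) by limma 3.58.1 (R 4.3.3), genotype as the only term, intensity trend, two-sided, Benjamini-Hochberg adjustment over all tested rows, threshold 0.05. Differences are knockout minus wild type on that scale and understate changes of low rows. The fit was also run on simulated data whose means and variances were taken from the fit of these libraries. An exact permutation test of 3 against 3 cannot go below 0.1, so none is given. Sequences were searched with Python 3.11.15; each 3′ untranslated region is the longest per gene in GENCODE M21 (GRCm38, the assembly mm10 names). The members and gene lists were chosen with earlier results of these data known. Genes named from the lists were the label checks and up to 4 called members per list by size of difference, or up to 2 of highest mean TPM where fewer than 2 were called, and the 3 rows nearest in profile to Tac1 and Calca (identifiers without a symbol left out; 1 row near Tac1 is not reported here); others are stated as chosen afterwards. Lists of other neurons, Schwann cells and vessels are described by counts in the closing section. Alternatives were a pseudocount of 0.1, no filter or a mean of 5 TPM, median-of-ratios and quantile scaling, a replicate block, library weights, a satellite glia covariate and leaving out libraries.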

Additional observations from a re-analysis of the deposited data

How the results depend on the processing

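Adcyap1 and Cartpt kept their calls under all 15 alternatives, Scg2 likewise, and Tac1 under 14. Cartpt passed the filter only through the wild-type libraries. With a pseudocount of 0.1 the Tac1 difference was -4.84 and not called. Calcb was 0.98 with no filter, 0.995 with the satellite glia covariate and 0.83 without both replicate 3 libraries, not called in any of these, so 0 members were called higher there; leaving out 1 library in turn gave 0 to 1 members called higher and Calcb differences of 0.86 to 1.196. Calca, never called, was -0.43 with the glia covariate and -0.28 without both replicate 3 libraries, and ran from -0.43 to 0.53 with single libraries left out; Npy ran from -0.90 to 1.97. The cause was not tested. The count of rows called higher (256) was 130 with no filter, 389 with quantile scaling, 80 with the glia covariate, 65 without both replicate 3 libraries and 48 to 348 without 1 library. The count called lower (437) was 248, 461, 116, 139 and 116 to 487 under the same settings. Leaving out libraries leaves fewer samples. Replicate numbers are shared between the groups. Same-numbered libraries correlated at only 0.049, 0.066 and 0.038 in their deviations from the group means. Differently numbered libraries correlated at -0.098 to 0.070, the highest between knockout replicate 1 and wild-type replicate 3. In both groups replicate 3 alone held Ddx3y and almost no Xist, so the numbers share at least this feature. As the correlations were small, the numbers were not taken to pair samples in the main fit. With the replicate block 188 rows rose and 341 fell, and the 4 member calls held. TPM keeps no depth, so how far counting error limits Vip, Gal, Cartpt and Sstr1 is unknown.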

Other observations

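Each library held some rows of its own, at 5 TPM or more and at least 4 times the level of every other library: 13, 16 and 12 rows in knockout replicates 1, 2 and 3, against 7, 18 and 30 in wild-type replicates 1, 2 and 3. Among the listed genes these were Npy, Gal and Sprr1a in knockout replicate 2, the gonadotropin-releasing hormone gene Gnrh1 in knockout replicate 3 (8.59 TPM) and Nts in wild-type replicate 3.

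Tac1 and Adcyap1 made up less of the summed 10 peptide genes in every knockout library. Tac1 was 1.47%, 1.37% and 0% of the sum in knockout and 9.96%, 16.2% and 12.4% in wild type, and Adcyap1 was 8.45%, 7.68% and 10.98% in knockout and 14.7%, 16.8% and 28.0% in wild type. Calca was 67.3%, 55.8% and 62.4% in knockout and 63.03%, 56.02% and 39.1% in wild type, and overlapped.

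The other lists held the calls below. They were chosen with earlier results of these data known, so their counts describe the listed genes and are not independent evidence of a direction. Over all tested rows, 3.17% were called lower and 1.86% higher by the same rule. At an unadjusted p below 0.05 from limma, 14.1% were lower and 9.77% higher. The proprioceptor list includes Pvalb, which marked the cells. Of 14 tested proprioceptor markers, 1 rose and 10 fell (median -1.53). The 10 falls were 6 without knockout replicate 1, 8 to 10 without any other single library and 5 with the glia covariate. Of 9 touch neuron markers 1 rose and 3 fell. The 3 falls were 0 without knockout replicate 1 or 2 or wild-type replicate 2 or 3, without both replicate 3 libraries, with no filter and with the glia covariate, and 1 with the replicate block. Of 12 pan-neuronal genes 1 rose and 0 fell, with an unadjusted p below 0.05 for 2 higher and 3 lower. That rise, of Rbfox3 (adjusted p = 0.0496), was not called without any single library, without both replicate 3 libraries, with no filter, with a pseudocount of 0.1, with the replicate block or with the glia covariate. Of 3 tested Schwann cell markers 1 rose. limma called 0 of 7 vascular and fibroblast markers, with 0 at an unadjusted p below 0.05, and 0 of 1 macrophage marker, with 1 lower at that level.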
